A study of Mus musculus with 10 samples.

Results

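Id1, Id2, Id3, Myc, Mycn, Jun, Junb and Ier2 encode nuclear regulators whose mRNAs are known for short lives. Their reads were followed here in native RNA sequencing of P19 cells, a mouse embryonal carcinoma line that is pluripotent. The members were chosen by name, as reads on annotated transcripts of the mRNA class whose tail estimate had passed the caller's quality test (tag PASS). They held 797 of the 2042110 kept reads, or 0.0390%, on 8 of the 13272 genes with a kept read. All cells were wild-type, undifferentiated P19 cells. The control cells received a pool of scrambled siRNAs (siCtl) and the others 1 siRNA against Larp1 (siLarp1), so that the knockdown rests on a single siRNA sequence. There were 3 libraries of each at 24 h and 2 of each at 48 h, and cells of the 48 h groups were transfected a second time after the first day. At 24 h the siCtl and siLarp1 libraries ran in different pools, and an effect of the pool and one of the siRNA cannot be told apart there. The 48 h libraries shared 1 pool, so that time, the second transfection and the pool cannot be told apart in comparisons of 48 h with 24 h.

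The ID proteins lack a DNA-binding region and hold E proteins in dimers that cannot bind DNA, and their genes are classical targets of BMP-SMAD signalling in pluripotent cells. MYC and MYCN are bHLH-leucine zipper activators that pair with MAX and drive growth genes. JUN and JUNB are subunits of AP-1, and IER2 is a product of an immediate-early gene. Such mRNAs are made in bursts and lose their poly(A) tails and bodies quickly, in many cases through AU-rich elements in the 3′ UTR, whose core letters are ATTTA. LARP1 is an RNA-binding protein known for its hold on mRNAs that start with a run of pyrimidines (TOP mRNAs), among them those of ribosomal proteins, and the design compares tails and levels with and without its knockdown.

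The tail of each molecule was measured from the base where its body ends. The 30 bases before the most used 3′ end are shown because they mark this junction. Each AATAAA or ATTAAA, the letters of the polyadenylation signal, is in capitals. Mycn has both, and which of them acts was not tested. The windows come from GENCODE transcripts on build GRCm38 and are written 5′ to 3′ on the strand of the mRNA.
Id1, chr2:152737381-152737410 (+): ttgttgttATTAAAcaaacactttagataa
Id2 downstream end, chr12:25093799-25093828 (−): aagattatAATAAAatgtgtctgacatcaa
Id2 upstream end, chr12:25093935-25093964 (−): atacaaAATAAAtcaagtgtgtttattgaa
Id3, chr4:136145358-136145387 (+): acattttgcatAATAAAccatttttgaaca
Myc, chr15:61990328-61990357 (+): ttttagaaaaaAATAAAataattggaaaaa
Mycn, chr12:12936098-12936127 (−): tgtttatgaaAATAAAtagcaATTAAAtga
Jun most used end, chr4:95049698-95049727 (−): cAATAAAcagcttcctgcctttgtaagtta
Ier2, chr8:84661332-84661361 (−): taggaaAATAAAgaccatcggtgtaaaacg
All 8 windows lie in the 3′ UTR of the last or only exon. The single end of Junb is not shown, and it had neither signal in the last 50 nt. Over the 8 genes there were 15 ends with at least 3 reads, where reads that stopped within 15 nt of a neighbour were taken as 1 end, and 12 of the 15 had AATAAA or ATTAAA in the last 50 nt.

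Id3, Junb and Ier2 each used a single 3′ end, with 198 of 200, 7 of 7 and 140 of 140 reads. In Id1 and Mycn the downstream end held 147 of 152 and 153 of 157 reads. Id2, Myc and Jun used several. The ends of Id2 lie 136 nt apart in its 3′ UTR, and 28 of its 81 reads (34.6%) stopped at the upstream and 52 (64.2%) at the downstream one. Myc stopped at the downstream of 2 ends, 104 nt apart, in 28 of 33 reads (84.8%) and at the upstream one in 5. Jun had 4 ends, with 11, 6, 7 and 3 of its 27 reads from upstream to downstream over 657 nt, so that the annotated end of its transcript was the least used.

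**Figure D1:**
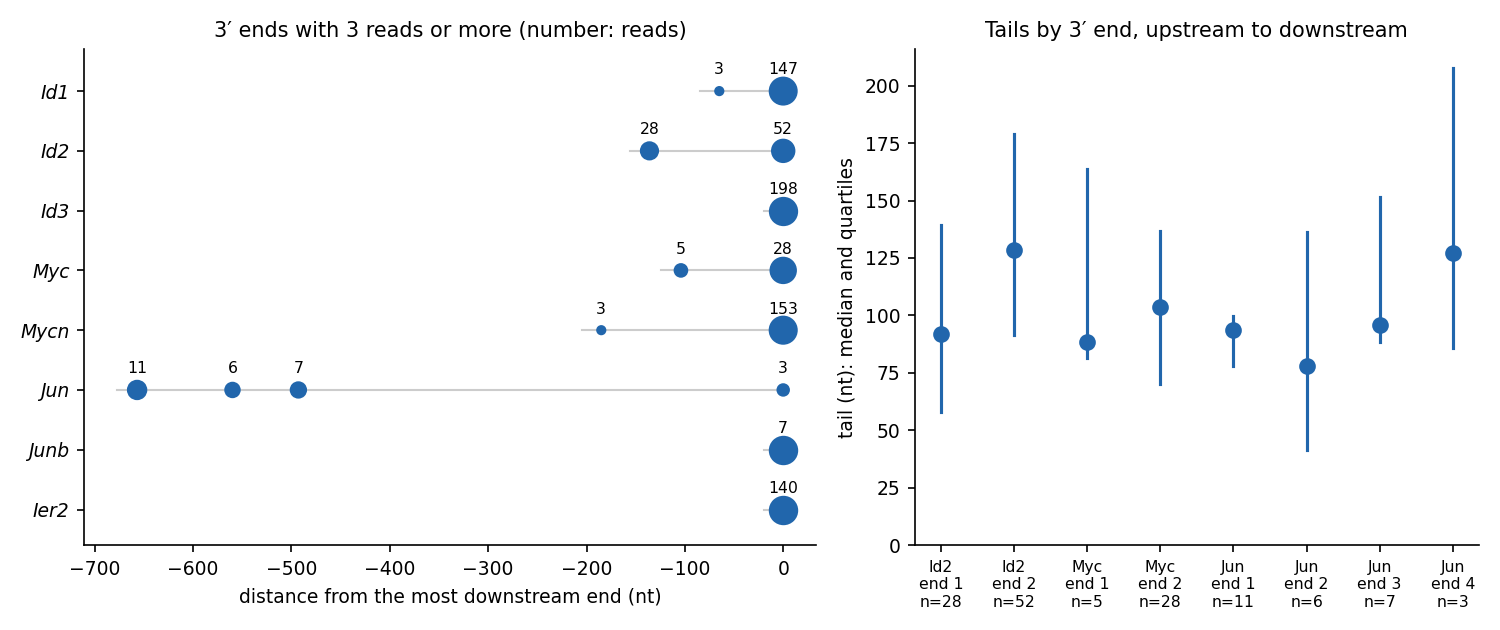
Left, 3′ ends with at least 3 reads in each gene, as distance in nt from its most downstream end, with point area growing with the share of the gene's reads and the number of reads above each point. Right, tail length in nt (median as point, quartiles as line) of the reads at each end of Id2, Myc and Jun, where the downstream end of Id2 had a median of 128.5 nt and the upstream one 91.8 nt.

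Id2 molecules that ended downstream had the longer median tail in most libraries. At the downstream end the median tail was 128.5 nt (quartiles 91.6 and 178.9 nt, 52 reads) and at the upstream end 91.8 nt (quartiles 58.2 and 139.3 nt, 28 reads). Of the 8 libraries with reads at both ends, 6 had the longer median downstream and 2 upstream, and this split was chosen after its values were seen and was not tested. The siLarp1 libraries 19 (24 h) and 25 (48 h) had it upstream, and the siLarp1 libraries 21 and 22 (24 h) downstream. Medians of these siLarp1 libraries and of siCtl library 24 rest on 1 to 4 reads an end. In the siCtl libraries 19, 21 and 22 at 24 h the medians were 69.1, 106.4 and 108.6 nt upstream and 158.1, 125.4 and 134.7 nt downstream, from 2, 7 and 7 and from 7, 12 and 15 reads. The siLarp1 libraries at 24 h held 7 reads at each end, and both libraries of each 48 h group together held 1 upstream and 6 downstream (siCtl) and 4 and 4 (siLarp1). These tallies are too small to compare the use of the ends between treatments.

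The end of a molecule set which AU-rich letters it carried. ATTTA, counted on the mRNA strand with overlaps allowed, occurs in the annotated 3′ UTR of 5 of the 8 genes (62.5%), namely Id2 (3 sites), Jun (4), Junb (2), Myc (2) and Mycn (1), against 65.5% of the 5828 genes with at least 30 reads and an annotated 3′ UTR. Id1, Id3 and Ier2 have none. TATTTAT, which holds ATTTA, was found in Id2 and Jun (2 of the 8) and in 25.7% of those genes, and the longer TTATTTATT in none of the 8 and in 5.92% of those genes. The share of all genes with the letters was thus near that of the members, whose 3′ UTRs had a median length of 645.5 nt beside 885 nt. Per kb of 3′ UTR the members had a median of 2.17 ATTTA, with Id1, Id3 and Ier2 at 0. The median was 1.27 over those genes and 1.41 over those with a 3′ UTR of 500 to 1500 nt. The difference in density was not tested. These 3 sites are shown, with ATTTA in capitals, because reads that stopped upstream lacked them.
Id2 most downstream site, chr12:25093842-25093846 (−): ataccagttcaaATTTAtgtagactgtatt
Jun first site, chr4:95049562-95049566 (−): tccagaaaggatATTTAagaaaatacaata
Jun last site, chr4:95049091-95049095 (−): ttgcttgtgcatATTTAtaatagcgttcgt
The coordinates are those of the capitals. That site of Id2 was covered by 52 of 81 reads (64.2%), whereas the other two were covered by 79 and 80. In Jun the first site was covered by 8 of 27 reads (29.6%) and each of the 3 others by 3 (11.1%). Most Jun molecules therefore ended before any ATTTA of the annotated 3′ UTR. Both sites of Junb were covered by all 7 reads, that of Mycn by 154 of 157, and those of Myc by 33 and 28 of 33.

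Over all libraries the tails of the pooled members were longer than those of the transcriptome. Their median was 116.9 nt (quartiles 78.9 and 154.5 nt) beside 101.8 nt in all kept reads. A tail over 150 nt was found in 28.1% of member reads and 19.6% of all reads, and a tail of 30 to 90 nt, the class the study named ~60 nt, in 29.4% and 38.5%. Tails under 30 nt made up 3.26% (26 reads) and 2.68%. All reads are weighted towards abundant mRNAs such as those of ribosomal proteins. With each gene counted once, the median gene with at least 30 reads had a median tail of 107.5 nt (quartiles 98.8 and 117.9 nt, 5858 genes).

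Against that scale the members spread from short to long. Mycn had the longest tails among the members with at least 30 reads, with a median of 123.3 nt (quartiles 92.3 and 162.8 nt, 157 reads), above 84.2% of genes, and none of its reads was under 30 nt. Ier2 followed with 118.7 nt (140 reads, above 76.4% of genes) and Id3 with 114.2 nt (200 reads, above 67.9%). The medians of Id2 (110.2 nt, 81 reads) and Id1 (108.6 nt, 152 reads) lay near the median gene. Myc, the close relative of Mycn, had 103.0 nt (quartiles 70.4 and 142.7 nt, 33 reads), below the median gene. Jun had 95.05 nt from 27 reads and Junb 134.4 nt from 7, and neither reached 30 reads. The quartile ranges of the 8 genes overlapped, and the order of their medians was not tested.

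**Figure D2:**
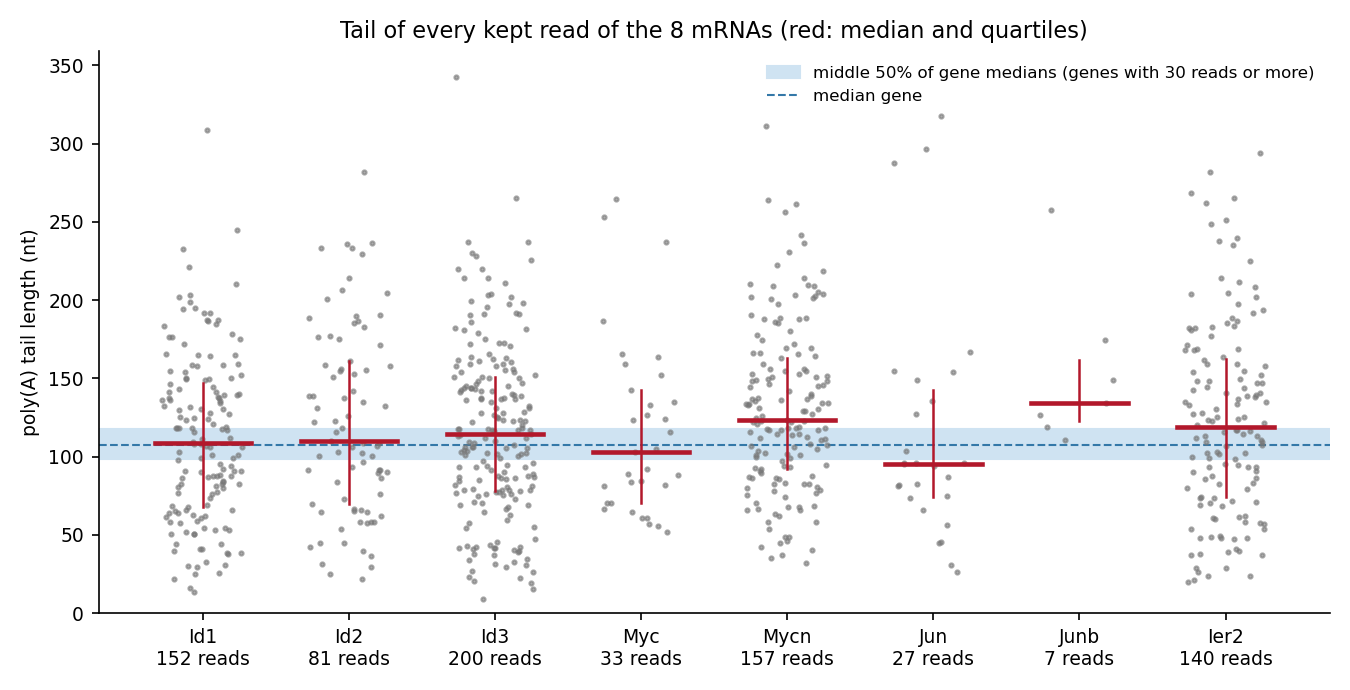
Poly(A) tail length in nt of every kept read of the 8 mRNAs over the 10 libraries (grey points), with the median and quartiles of each gene in red. The blue band spans the quartiles of the medians of 5858 genes, 98.8 to 117.9 nt, and the median of Mycn (123.3 nt) lies above it and that of Jun (95.05 nt) below.

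The 78 ribosomal protein mRNAs, the main TOP mRNAs, had gene medians of 82.1 to 109.9 nt with a median of 95.8 nt, and 3 of them lay above the median gene. Of the 6 members with at least 30 reads, 5 did. Other short-lived mRNAs were a list of 37 symbols of early-response and signalling genes, some of them old and new symbols of the same gene. The 14 with at least 30 reads had gene medians of 98.5 to 143.9 nt. Their median was 111.8 nt, close to the 112.2 nt of the members. Among them Mcl1, an anti-apoptotic factor, had 112.2 nt, Ier3, a stress-response gene, 107.6 nt, and Nodal, a morphogen, 105.3 nt. The genes whose median tail per library was most like that of the pooled members were Mdh1, Cct8, Eno1, Pou5f1 and Eif4a1, with root mean square differences of 5.20 to 6.62 nt over the 10 libraries, beside a median of 16.9 nt over the 563 genes with at least 500 reads.

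Larp1 itself had fewer reads per kept read in each siLarp1 library. Its level in RPM (reads per 1000000 kept reads) was 32.4 ± 12.9 (SD, n = 3) beside 81.7 ± 5.04 at 24 h and 21.7 ± 4.51 (SD, n = 2) beside 145.8 ± 32.1 at 48 h, from 13 and 6 reads in the siLarp1 groups. The limma fit of all genes put its log2 difference at −1.34 (SE 0.43, Benjamini-Hochberg adjusted p = 0.838) and −2.52 (SE 0.56, adjusted p = 0.252), so the target itself was not called at this depth. Libraries held 112720 to 423398 kept reads, and each siLarp1 library at 24 h was shallower than each siCtl library. Markers of the P19 state were present, with 12 of 13 pluripotency genes detected and 3297 to 4424 RPM in sum, and Pou5f1, their most abundant, at 2479 ± 209 RPM (SD, n = 3) in siCtl at 24 h. Endoderm markers summed to at most 24.9 RPM in any library, with 2 of their 6 genes at 0, and at 24 h to 0 to 5.81 RPM in siCtl and 7.48 to 19.1 RPM in siLarp1. Neuronal markers, of which 7 of 9 had reads, summed to 233.8 to 371.8 RPM at 24 h and 201.5 to 234.5 RPM at 48 h, and the part of either list in the results was not tested.

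The pooled members had higher median tails in siLarp1 than in siCtl libraries at 24 h. The median was 117.5, 109.0 and 118.9 nt in the siCtl libraries 19, 21 and 22, from 111, 117 and 220 reads. In the siLarp1 libraries 19, 21 and 22 it was 122.1, 122.8 and 122.7 nt, from 45, 47 and 78 reads. The groups did not overlap, and the mean was 7.36 nt higher in siLarp1 (122.5 ± 0.399 against 115.2 ± 5.35 nt, SD, n = 3). Of the 4677 single genes with reads in each library, 11.7% likewise did not overlap, and no share was computed over pools of genes. The mean difference was 3.76 nt with reads of all quality tags and 4.29 nt without siCtl library 21. The members did not share it, since the mean of the library medians was higher in siLarp1 by 16.2 nt in Id1, 2.53 nt in Id3, 14.3 nt in Myc and 24.5 nt in Jun, and the difference was −8.97 nt in Id2, −0.42 nt in Mycn and −1.30 nt in Ier2. With Id1 and Mycn alone, the members with at least 10 reads in each library, each counted once, it was 7.89 nt, nearly all from Id1. All kept reads differed less, with medians of 102.1 to 104.4 nt in siCtl and 100.9 to 104.3 nt in siLarp1.

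At 48 h the groups overlapped. Medians were 112.6 and 98.0 nt in siCtl (36 and 50 reads) and 96.2 and 106.7 nt in siLarp1 (50 and 43 reads), with a mean difference of −3.84 nt. The pooled members lay above all reads in 6 of 6 libraries at 24 h, by 4.66 to 21.9 nt, and in 2 of 4 at 48 h, where the differences ran from −1.49 to 15.5 nt. Medians of all reads at 48 h were 97.1 to 103.1 nt.

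**Figure D3:**
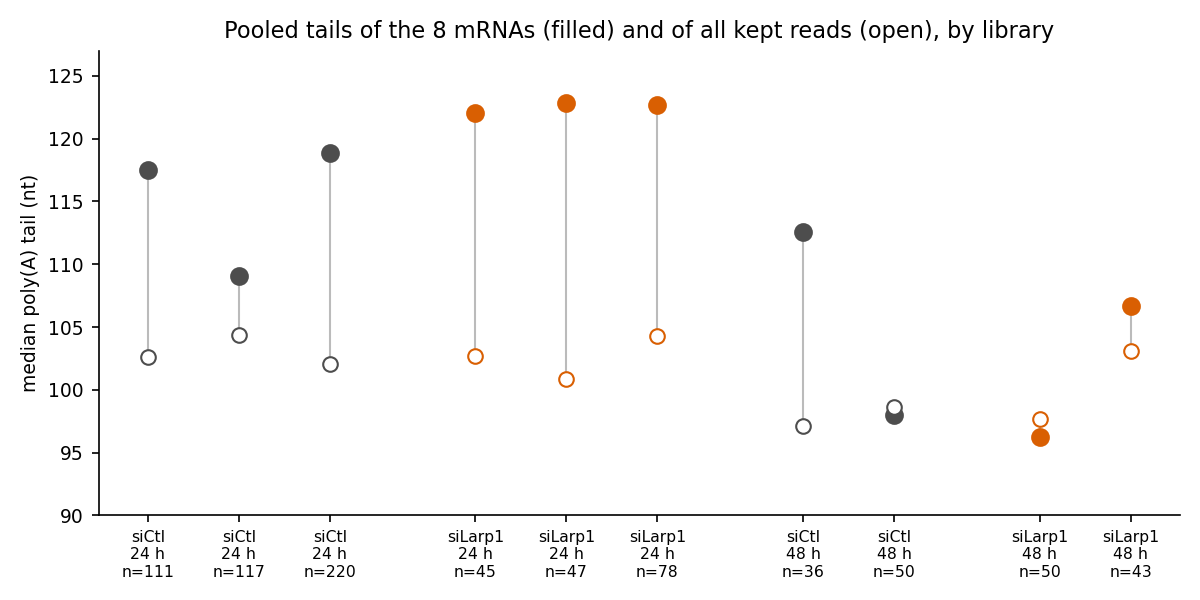
Median poly(A) tail length in nt of the pooled members (filled) and of all kept reads (open) in each library, siCtl in grey and siLarp1 in orange, with the number of member reads below; the axis starts at 90 nt. At 24 h the 3 siLarp1 values (122.1 to 122.8 nt) lie above the 3 siCtl values (109.0 to 118.9 nt), and at 48 h the groups overlap.

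Very short tails were rare in both treatments. At 24 h, 3, 9 and 6 member reads were under 30 nt in the siCtl libraries and 1, 3 and 0 in the siLarp1 libraries, or 4.37% ± 2.87 and 2.87% ± 3.24 of reads (SD, n = 3). Summed over libraries this was 18 of 448 reads (4.02%, exact 95% binomial interval 2.40 to 6.28%) and 4 of 170 (2.35%, interval 0.645 to 5.91%), where intervals cover counting error only. At 48 h it was 1 of 86 (1.16%, interval 0.0294 to 6.31%) and 3 of 93 (3.23%, interval 0.670 to 9.14%). Taking 3 reads as the limit of a count of 0, the 0 of 78 reads in the siLarp1 library 22 allows a share of up to 3.85% (exact upper bound 4.62%), and the 0 of 50 in the siCtl library 25 up to 6.00% (exact upper bound 7.11%). A change of the size seen in all reads at 24 h, from between 2.15 and 2.42% to between 2.63 and 3.22%, was not detectable at this depth.

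By gene, the 26 short tails fell on Id3 (9), Ier2 (7), Id1 (6), Id2 (3) and Jun (1). Mycn had none in 157 reads and its shortest tail was 32.2 nt, while Id3, with 200 reads, had tails down to 9.22 nt. The class of 30 to 90 nt held 31.5, 25.6 and 26.4% of member reads in siCtl and 26.7, 25.5 and 25.6% in siLarp1 libraries at 24 h, with overlap, and 33.3 and 44.0% beside 38.0 and 32.6% at 48 h. Tails over 150 nt held 26.1, 21.4 and 31.8% beside 35.6, 29.8 and 33.3% at 24 h, also with overlap.

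Single members gave no tail call. For genes with 30 or more reads at a time point, seen in 2 or more libraries of each group, the mean log2 tail length was fitted with limma over all 4797 genes at 24 h and 2704 at 48 h. Id1, Id2, Id3, Mycn and Ier2 passed this filter at 24 h and Id3, Mycn and Ier2 at 48 h, so Myc, Jun and Junb were not tested in these fits. None of these 5 and 3 was called (lowest adjusted p 0.955 and 0.890), where 0.0834% of all genes were called at 24 h (4 genes, all lower and all for ribosomal proteins) and 0 of 2704 at 48 h. At an unadjusted p under 0.05 there were 308 genes (6.42%) and 165 genes (6.1%), none of them a member. The median log2 difference over the members tested was 0.01 at 24 h and −0.06 at 48 h, beside 0.02 and 0.02 over all genes.

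Id1 had the largest tail difference of the 5 members fitted at 24 h. Its medians were 108.3, 107.7 and 106.0 nt in siCtl (21, 32 and 43 reads) and 136.6, 87.0 and 147.1 nt in siLarp1 libraries (10, 12 and 14 reads), so that the siLarp1 values lay on both sides of the narrow siCtl range. The log2 difference in mean tail was 0.18 (SE 0.17, adjusted p = 0.955), or 1.13-fold with an interval of 0.894 to 1.43. Id3 had medians of 111.5, 110.8 and 116.6 nt in siCtl and 122.4, 98.9 and 125.2 nt in siLarp1 libraries, with a log2 difference of 0.14 (SE 0.15, adjusted p = 0.958). In both genes the siLarp1 library 21 was the low one. Id2 medians overlapped at 96.9, 118.4 and 134.7 nt against 100.1, 109.0 and 114.0 nt.

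Mycn had long tails in both treatments at 24 h, with medians of 139.3, 114.7 and 132.3 nt in siCtl and 140.2, 137.3 and 107.5 nt in siLarp1 libraries. Its log2 difference was −0.10 (SE 0.16, adjusted p = 0.974), and the interval of 0.750 to 1.17-fold bounds the change. At 48 h its medians were 113.6 and 106.2 nt beside 88.4 and 119.7 nt. Ier2 medians at 48 h were 61.6 and 113.4 nt in siCtl (5 and 12 reads) and 123.4 and 137.0 nt in siLarp1 libraries (9 and 4 reads), without overlap, as in 33.8% of the 2704 genes (log2 difference 0.40, SE 0.29, adjusted p = 0.890). At 24 h Ier2 overlapped, with 107.2, 104.0 and 127.8 nt beside 74.9, 145.7 and 114.6 nt. The difference between the effects at both time points was 0.51 (SE 0.35, adjusted p = 0.931, limma).

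Jun tails at 24 h did not overlap either, with medians of 81.7, 73.3 and 80.9 nt in siCtl and 128.8, 84.7 and 96.0 nt in siLarp1 libraries (p = 0.1 by a two-sided exact permutation test, which cannot go lower with 3 libraries a group), as in 11.7% of the 4677 genes with reads in each library. These medians rest on 3, 5 and 5 and on 2, 2 and 3 reads. The genes of that share each had 30 or more reads at 24 h, so it is not a like comparison for Jun. Myc medians came from 1 to 6 reads a library and ranged from 61.1 to 159.1 nt. With so few reads a difference in the tails of Jun or Myc was not detectable at this depth unless it was large. A log2 odds fit of tails under 30 nt called 0 of 4797 genes at 24 h and 0 of 2704 at 48 h (478 and 275 at an unadjusted p under 0.05). In simulated libraries of unequal depth this fit gave the wrong sign for many genes whose short tails had been made rarer, so the tallies above stand in its place.

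Summed levels of the members differed by less than the spread between libraries at 24 h and overlapped at both time points. The siCtl libraries 19, 21 and 22 held 383, 339.9 and 519.6 RPM of the 8 mRNAs at 24 h, and the siLarp1 libraries 375, 351 and 497. Library 22 was the highest in both treatments. Means were 414 ± 93.8 and 408 ± 77.9 RPM (SD, n = 3). At 48 h the libraries held 319 and 279.8 RPM in siCtl and 308 and 357 in siLarp1, a mean difference of 33.01 RPM beside SDs of 27.99 and 34.1 RPM (n = 2).

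**Figure D4:**
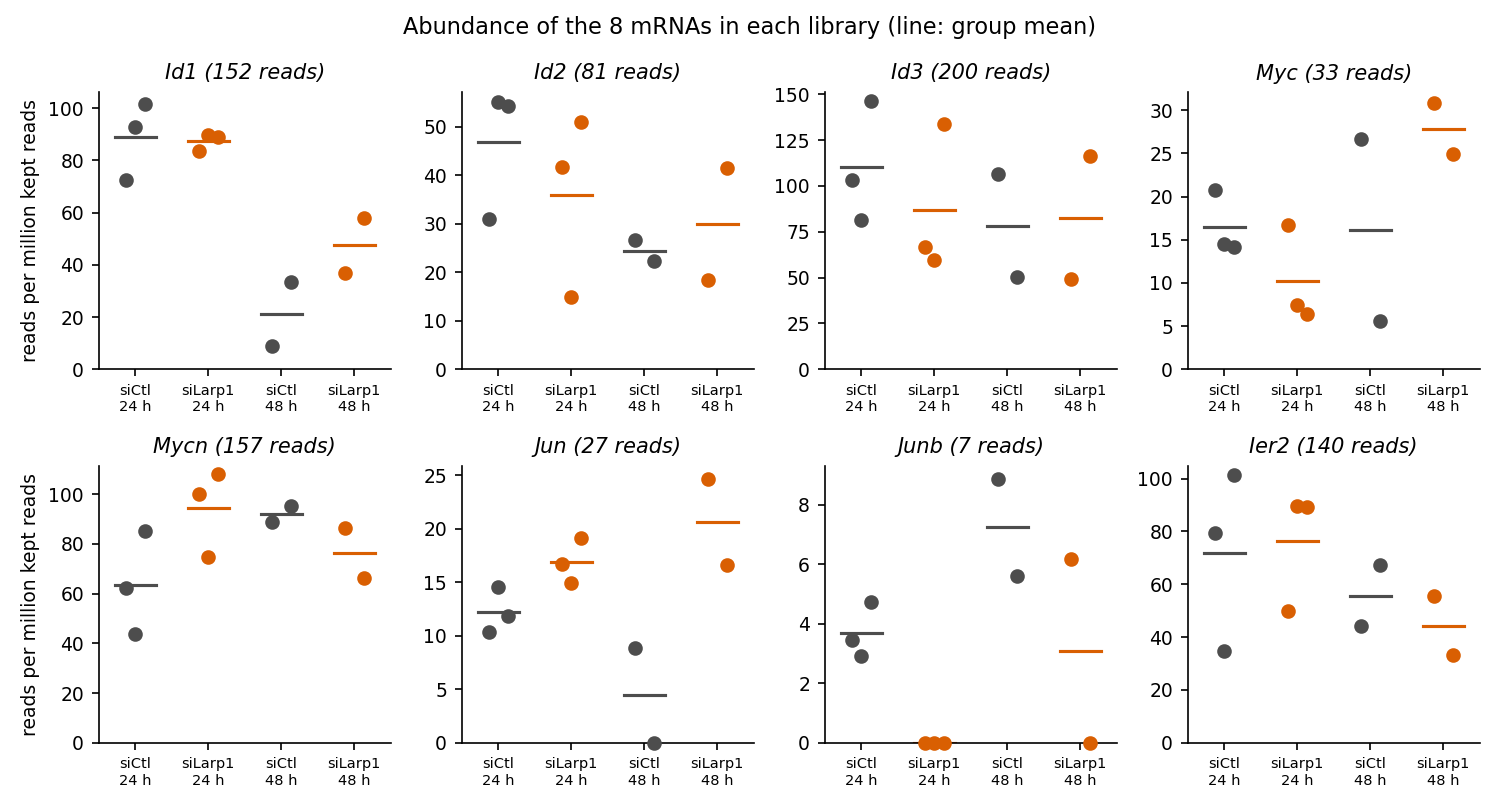
Level in RPM of each of the 8 mRNAs in each library (points) with the group mean (line), siCtl in grey and siLarp1 in orange; each panel has its own axis from 0. Id1 lies at 72.5 to 101.6 in the 6 libraries at 24 h and at 8.87 to 58.1 in the 4 libraries at 48 h. Jun is higher in siLarp1 at both time points, on 0 to 5 reads a library.

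Of the 5 members tested for abundance at 24 h none was called, nor were the 3 tested at 48 h (lowest adjusted p 0.861 and 0.942), and 0.0% of the 4797 and 2704 genes were. At an unadjusted p under 0.05 there were 268 genes (5.59%) and 135 genes (4.99%), none of them a member. Mycn had the largest difference at 24 h, with 62.1, 43.6 and 85.0 RPM in siCtl and 100.1, 74.8 and 108.2 RPM in siLarp1 libraries. The groups overlapped in that the highest siCtl library exceeded the lowest siLarp1 library, and the log2 difference was 0.60 (SE 0.30, adjusted p = 0.861), or 1.52-fold with an interval of 0.994 to 2.32. At 48 h the difference in Mycn had the opposite sign, with 88.7 and 95.1 RPM in siCtl and 86.4 and 66.4 in siLarp1 libraries, groups that did not overlap, as in 34.1% of genes and with siLarp1 lower in 15.9% (log2 difference −0.24, SE 0.38, adjusted p = 0.942). The effects at both time points differed by −0.86 (SE 0.52, adjusted p = 0.985).

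The ID mRNAs had differences within the spread of libraries at 24 h. Id1 had 72.5, 93.0 and 101.6 RPM in siCtl and 83.4, 89.7 and 89.1 in siLarp1 libraries, a log2 difference of 0.00 (SE 0.28, adjusted p = 0.999), which bounds its change to between 0.679 and 1.47-fold. Id2 had 31.1, 55.2 and 54.3 RPM and 41.7, 14.95 and 50.9, and Id3 103.5, 81.3 and 146.4 and 66.7, 59.8 and 133.7. Their log2 differences were −0.39 (SE 0.46) and −0.34 (SE 0.31), with adjusted p of 0.984 and 0.963. Ier2 had 79.4, 34.9 and 101.6 RPM in siCtl and 50.1, 89.7 and 89.1 in siLarp1 libraries (log2 difference 0.21, SE 0.36, adjusted p = 0.987). Id3 and Ier2 varied among libraries of 1 treatment by more than they differed between treatments. At 48 h Id1 had 8.87 and 33.6 RPM in siCtl (1 and 6 reads) and 37.0 and 58.1 RPM in siLarp1 libraries (6 and 7 reads), groups that did not overlap. Of the 2704 genes tested at 48 h, each with 30 or more reads, 34.1% were apart, 18.2% with siLarp1 higher. Id2 had 26.6 and 22.4 RPM beside 18.5 and 41.5, Id3 106.5 and 50.4 beside 49.4 and 116.1, and Ier2 44.4 and 67.2 beside 55.5 and 33.2, all with overlap.

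**Figure D5:**
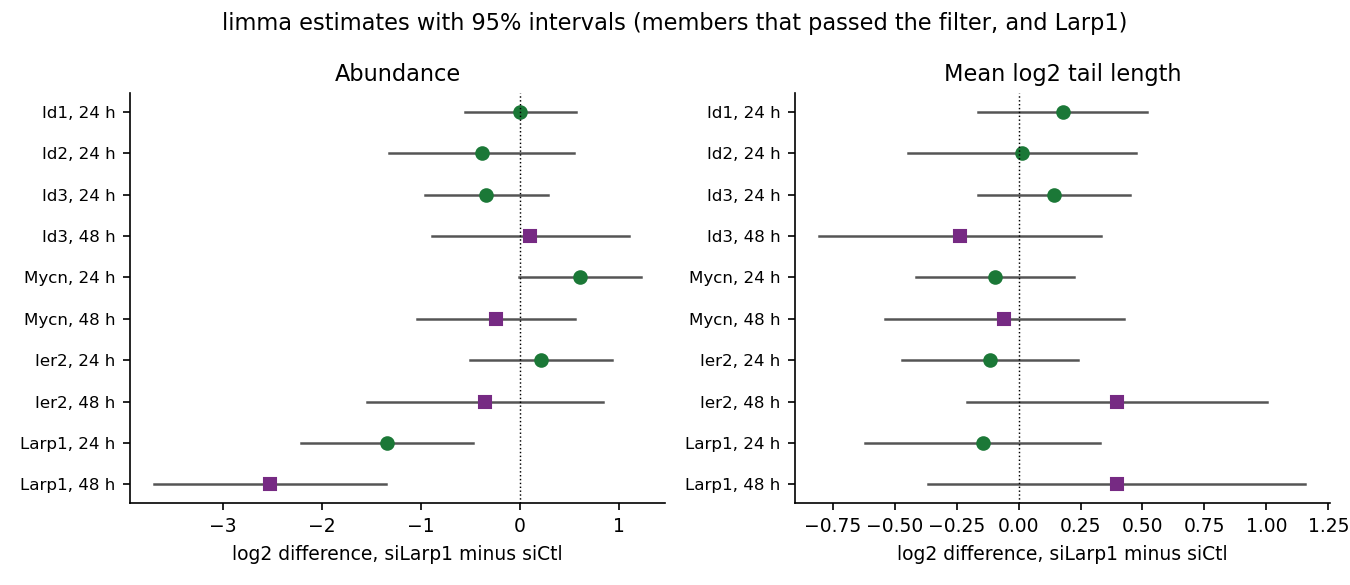
limma estimates (points) and 95% intervals (lines) of the log2 difference, siLarp1 minus siCtl, in abundance (left) and in mean log2 tail length (right), at 24 h (green circles) and 48 h (purple squares), for the members that passed the filter and for Larp1. Intervals of all members include 0, while those of Larp1 abundance lie below it, at −1.34 and −2.52.

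Jun and Junb were too sparse for the fit and were compared by an exact permutation test over libraries. Jun had 10.4, 14.5 and 11.8 RPM in siCtl and 16.7, 14.95 and 19.1 RPM in siLarp1 libraries at 24 h, from 3, 5 and 5 and from 2, 2 and 3 reads. At 48 h it had 8.87 and 0 RPM in siCtl (1 and 0 reads) and 24.7 and 16.6 RPM in siLarp1 libraries (4 and 2 reads). The siLarp1 libraries were thus higher without overlap at both time points, but on 0 to 5 reads a library. At 24 h the highest siCtl library (14.5 RPM, 5 reads) nearly met the lowest siLarp1 library (14.95 RPM, 2 reads). Among genes tested at 24 h 4.69% were apart with siLarp1 higher, at 48 h, where Id1 was too, 18.2%, and of the 5431 tested over all 10 libraries 1.07% were so at both and 1.23% apart with siLarp1 lower at both. Genes in these shares had 30 or more reads. Jun had fewer, as had Junb and, at 48 h, Id1, so the shares are not a like comparison for them. For Jun, an exact test with labels permuted within each time point gave p = 0.0167 (two-sided), the smallest its 120 arrangements allow. It is 1 of 14 such values computed for the members and was not adjusted. Junb had 1, 1 and 2 reads in the siCtl libraries at 24 h and none in the 3 siLarp1 libraries, and 1 and 1 beside 1 and 0 at 48 h. Each siLarp1 library at 24 h was also the shallower. At 24 h 6.13% of genes were apart with siLarp1 lower. Counts of 1 and 2 reads a library lie at or under the 3 reads that a count of 0 allows, so no fold is given for Junb. The exact test within time points gave p = 0.0333 for Junb (two-sided, not adjusted), with siLarp1 lower, on these counts. The Jun counts of the siLarp1 libraries at 24 h (2, 2 and 3 reads) lie within that limit too. Myc had 20.7, 14.5 and 14.2 RPM in siCtl and 16.7, 7.48 and 6.37 in siLarp1 libraries at 24 h, and 26.6 and 5.60 beside 30.8 and 24.9 at 48 h, with overlap at both.

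With time, Id1 was the member that differed most. It had 132 reads at 24 h and 20 at 48 h, and its level was 58.1 RPM or less in all 4 libraries at 48 h and 72.5 RPM or more in all 6 at 24 h. Such a gap was found in 1.07% of the 5431 genes tested. In siCtl cells the log2 difference of 48 h against 24 h was −1.89 (SE 0.57), which did not pass the threshold (limma, adjusted p = 0.0888, with 0.7% of genes called and 11.5% at an unadjusted p under 0.05). In siLarp1 cells it was −0.91 (SE 0.45, adjusted p = 0.491), and the effects of siLarp1 at both times did not differ beyond error (0.98, SE 0.72, adjusted p = 0.985). Id2 and Id3 had log2 differences of −0.82 (SE 0.54) and −0.64 (SE 0.38) in siCtl cells, Mycn one of 0.58 (SE 0.34) and Ier2 one of −0.18 (SE 0.43), none of them called. Mean log2 tails of the 6 members in this fit differed between the times by −0.29 (Id1) to 0.13 (Myc) in siCtl cells, with none called and none at an unadjusted p under 0.05, beside 0.184% and 8.4% of genes. Other genes moved across the same interval. Mesoderm markers summed to 20.3 to 82.7 RPM over the libraries at 24 h and 150.8 to 389.9 at 48 h, of which the gene T, which encodes brachyury, gave 236 of 239 reads. Their part in the Id1 difference was not tested.

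No partner of the members passed the test against siLarp1. None of the genes in 6 lists around the members was called for abundance or tail length at either time point, and not all of them were tested. Over all genes, 0 of 4797 at 24 h and 0 of 2704 at 48 h were called for abundance. For tail length 4 and 0 were, and Larp1 itself was not called. The lack of calls is thus not particular to these lists. The E protein gene Tcf3, which the ID proteins bind, had 64.4 ± 18.2 RPM in siCtl and 86.0 ± 41.4 in siLarp1 at 24 h (SD, n = 3). Of the Id partners and BMP-SMAD genes 3 of 11 were tested at 24 h, and their median log2 difference in abundance was −0.04, beside 0.01 for all genes. Smad4, which joins the SMADs of BMP signals, had 68 reads and Bmpr1a, a BMP receptor, 62. Of the MYC network 2 of 10 were tested, namely Max, the shared partner of MYC and MYCN (log2 difference 0.36, SE 0.35, adjusted p = 0.966), and Mlx, a related bHLH factor (−0.08, SE 0.38, adjusted p = 0.994), while Mxi1, a MAX-binding repressor, had 46 reads and missed the filter.

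Genes that MYC proteins are known to activate were abundant. None of them was called, as no gene was for abundance at either time point. All 18 had at least 30 reads, and 17 were tested at each time point, with median log2 differences of −0.01 at 24 h and 0.05 at 48 h. Npm1, a nucleolar chaperone, had 6439 ± 436 RPM in siCtl and 5560 ± 295 in siLarp1 at 24 h (SD, n = 3, log2 difference −0.19, SE 0.05, adjusted p = 0.699). Eif5a, a translation factor, and Ldha, lactate dehydrogenase, differed by −0.02 (SE 0.07) and 0.03 (SE 0.09). Tails of the 18 had a median of 101.6 nt over genes, shorter than those of the members.

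Summed levels of the AP-1 partners did not overlap between treatments at either time point, with siLarp1 higher. Of single genes 1.07% were apart in this way at both (4.69% at 24 h and 18.2% at 48 h). A sum over genes is not like a single gene, and no share was computed over summed lists. The 8 AP-1 partners with reads summed to 168.5 to 203.6 RPM in siCtl and 210.1 to 291.6 in siLarp1 libraries at 24 h, and to 177.4 to 195.9 and 228.3 to 282.0 at 48 h. Most of this was Jund, a JUN relative, with 107.3 ± 10.3 and 142.9 ± 27.7 RPM at 24 h (SD, n = 3; log2 difference 0.42, SE 0.23, adjusted p = 0.891) and 105.2 ± 14.3 and 152.9 ± 41.8 RPM at 48 h (SD, n = 2; 0.50, SE 0.33, adjusted p = 0.878). Mafg, a small MAF protein, had 74 reads and a log2 difference of 0.68 (SE 0.39, adjusted p = 0.895) at 24 h, and Atf2, a bZIP factor that pairs with JUN, −0.77 (SE 0.64, adjusted p = 0.963) with 50 reads. The 5 others with reads had fewer, and 3 of the 11 genes had none. Summed levels of the Id partners and of the MYC network overlapped at 24 h and did not at 48 h, with siLarp1 higher. The same held for the pluripotency genes (3682 to 4187 beside 4305 to 4424 RPM at 48 h), and with 2 libraries a group 34.1% of single genes were apart.

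Proteins that bind AU-rich elements were expressed and mostly had long tails themselves. Of 8 genes, 7 had at least 30 reads and 5 of these lay above the median gene, with gene medians of 98.4 to 148.6 nt and a median of 140.1 nt. Hnrnpd, which encodes AUF1, had 256 ± 37.0 RPM in siCtl and 266 ± 17.9 in siLarp1 at 24 h (log2 difference 0.08, SE 0.18, adjusted p = 0.988). Elavl1, the gene of the stabilizing protein HuR, differed by −0.08 (SE 0.38) and Zfp36l2, the gene of a destabilizing zinc finger protein, by 0.41 (SE 0.39). Over the 9 other short-lived mRNAs tested at 24 h the median log2 difference was 0.07, and over the 5 tested at 48 h 0.35. Among these Mcl1 had 106.9 ± 24.5 RPM in siCtl and 175.4 ± 48.6 in siLarp1 at 48 h (SD, n = 2; log2 difference 0.77, SE 0.33, adjusted p = 0.878), and Ier3 107.3 ± 101.5 and 75.6 ± 80.8 RPM.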

How the data were processed

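Native poly(A)-selected RNA of P19 cells was sequenced on nanopores, so that 1 read is 1 molecule. The authors called bases with Guppy, aligned reads with Minimap2 (version 2.20) to mm10 transcripts of GENCODE, assigned barcodes with Deeplexicon and estimated tails with Nanopolish. The deposited table, made by the authors, holds per alignment the tail length in nt, a fraction for barcode confidence and a mapping score. Selection on oligo(dT) can lose short tails. Libraries were grouped by the treatment and time they name. Which numbered sample each is was not given in the sources used here.

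Alignments of annotated mRNAs with a passed tail estimate were kept, without pseudogenes and mitochondrial genes (2042110 alignments, 112720 to 423398 a library). Reads were tallied per gene and library. limma 3.58.1 in R 4.3.3 tested abundance (voom), mean log2 tail length (weighted by reads) and log2 odds of tails under 30 nt (0.5 added to each tally) over all genes with 30 or more reads, with Benjamini-Hochberg adjustment and a threshold of 0.05. Sparse genes were compared by exact permutation over libraries, and exact binomial intervals came from scipy 1.17.1. On simulated data with large changes the abundance and tail fits returned the right sign for nearly all of them, while the odds fit gave wrong signs at unequal depth. Smaller changes were not simulated. The text names all 8 members, Larp1, and from each list the genes called and the 3 with most reads. Members and lists were chosen with earlier results of these data known.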

Additional observations from a re-analysis of the deposited data

How the results depend on the processing

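Depth is the main limit, since the 8 mRNAs gave 36 to 220 reads a library. With the filter of 30 reads, Jun and Junb were too sparse for any fit and Myc for those within a time point. Of 83 recomputed values of the pooled members 77 moved by less than the spread between libraries. The difference in the 30 to 90 nt share at 24 h (−1.90 percentage points) was 1.601 with all quality tags and −5.38 where the barcode call had a confidence of 0.9 or more. That under 30 nt at 48 h (1.77) was 3.66 with all tags, −0.556 at that confidence and −1.61 with a limit of 35 nt, and that in RPM at 48 h (33.01) was 74.5 at that confidence. The causes were not tested. Leaving out 1 library at a time gave, at 24 h, −3.26 to 0.153 points under 30 nt, −3.00 to −0.0558 points from 30 to 90 nt, 4.29 to 9.23 nt in the median (lowest without siCtl library 21) and −50.8 to 46.3 RPM, and at 48 h 0.385 to 3.16 points, −8.72 to 1.95 points, −11.1 to 3.44 nt and 8.91 to 57.1 RPM. With members weighted equally no value could be had at 48 h, since no member had 10 reads in each library.

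Whether library numbers pair the samples was not settled, and the main fits did not pair them. Same-numbered libraries at 24 h had correlated deviations of 0.0191, 0.109 and 0.108 (2612 genes), and each correlated best with its own number. Other pairs at 24 h had −0.101 to 0.00177. Deviations were taken from means of only 3 libraries, and at 48 h of 2, where they mirror each other and cannot decide. With the number as a replicate block the abundance fit called 18 genes at 24 h (12 higher) and 4 at 48 h, and the tail fit 20 at 24 h (18 lower), none of them a member. Abundance calls at 24 h, 0 as reported, were 2 with all tags and 2 at equal depth, and 0 to 8 with 1 library left out (8 without siCtl library 22). At 48 h, also 0, they were 1 in a fit of all 10 libraries, 3 from 10 reads, 4 with all tags, 1 at a confidence of at least 0.9 and 0 to 1 with 1 library left out. Tail calls at 24 h, 4 as reported, were 0 with all tags, 0 from median tails and 1 to 17 with 1 library left out (17 without siCtl library 22), and at 48 h, 0 as reported, 1 from median tails and 0 to 8 (8 without siLarp1 library 25). The odds fit called 1 gene at each time with all 10 libraries and, with the 0.5 scaled to depth, a choice made after seeing the data, 20 at 24 h and 28 at 48 h.

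Larp1 abundance at 48 h, not called as reported, was called with the block, from 10 reads and at a confidence of 0.9 or more. No member that passed the main filter at a time point was called there under the alternatives of the abundance and tail fits. Of its 214 recomputed log2 differences over these members, 189 kept their sign, and the others were near 0 or sparse. Members that pass the filter only in an alternative, such as that from 10 reads, were not among these values. Id1 abundance at 24 h was −0.0066 with the block, −0.0011 from 100 reads, −0.063 at a confidence of at least 0.9, −0.020 with median-of-ratios scaling and −0.12 to 0.11 with 1 library left out. The Id2 tail at 24 h was −0.017 with the block, −0.16 from median tails and −0.037 to 0.057 with 1 library left out, and Id2 abundance −0.72 to 0.066. The Id3 tail at 48 h was 0.062 at that confidence and −0.38 to 0.075, and Id3 abundance −0.63 to 0.88. The Ier2 tail at 24 h was 0.38 at equal depth and −0.21 to 0.086, and Ier2 abundance −0.23 to 0.59. Mycn abundance at 48 h was 0.012 with all tags, 0.12 at that confidence and 0.32 at equal depth. The Mycn tail was −0.16 to 0.0070 at 24 h, and at 48 h 0.070 at that confidence, 0.20 at equal depth and −0.18 to 0.15.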
